A study of Mus musculus with 6 samples.

Results

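The genes of the vascular basement membrane that are not collagens were examined in the mouse aorta, and they comprised 7 laminin chains (Lama2, Lama4, Lama5, Lamb1, Lamb2, Lamc1 and Lamc3), the nidogens Nid1 and Nid2, and Hspg2, which encodes perlecan. They were chosen by gene symbol and are 10 of the 55335 genes listed. All 10 passed the filter on low counts, as did 16612 genes in all. RNA was taken from the aorta of wild-type C57BL/6 mice (the strain is written c57b6l in the labels, the genotype WT) at 6 weeks of age, called young, and at 6 months, called aged. Each group held 3 mice with 1 library per mouse, and the labels name no transgene and no treatment. The study describes all mice as male, and the fat around the vessel was dissected away, while the whole wall and whatever remained on it was sequenced together. An age of 6 months is that of an adult mouse, so the comparison covers growth to adulthood as well as aging.

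A basement membrane is a thin sheet of matrix that lies under endothelium and surrounds each smooth muscle cell. Laminins are its organizers. Each laminin is a cross-shaped trimer of an alpha, a beta and a gamma chain, which polymerizes on the cell surface and is held there by integrins and dystroglycan. Nidogens bind the short arm of the gamma chain and link the laminin sheet to the type IV collagen network and to perlecan, a large proteoglycan whose heparan sulfate chains retain growth factors. In vessels, endothelium is known for laminins with the alpha4 and alpha5 chains, and muscle for those with alpha2.

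The sequences that bear on these genes are shown first. The nidogen-binding stretch of the gamma1 chain is the contact that joins laminin to Nid1 and Nid2, and the corresponding stretch of the gamma3 chain is set beside it because both gamma chains were measured here. Each is 7 codons (21 bases) of the coding strand, read from GENCODE M21 transcripts on GRCm38 and lying in exon 14 of 28 in both genes. Capitals mark the 7 bases that differ between both genes, and 2 of the 7 encoded residues differ. The Lamc1 stretch is at chr1:153243361-153243381 on the minus strand, and the Lamc3 stretch at chr2:31920598-31920618 on the plus strand.
Lamc1: aacAtAgaCcCcaaCgcGgtT
Lamc3: aacGtGgaTcTcaaTgcTgtG

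Promoters are shown for Lamb1, Nid1 and Hspg2, the 3 members with the smallest p of the comparison between ages. RefSeq promoter sequence on GRCm38.p6 was found for 6 of the 10 members, and each stretch ends at the base before the first annotated transcript start in GENCODE M21. All 3 are on the plus strand, and capitals mark the GC box, GGGCGG on either strand. The Lamb1 stretch is chr12:31265043-31265233 (191 bases), that of Nid1 is chr13:13437352-13437550 (199 bases) and that of Hspg2 is chr4:137468553-137468768 (216 bases).
Lamb1: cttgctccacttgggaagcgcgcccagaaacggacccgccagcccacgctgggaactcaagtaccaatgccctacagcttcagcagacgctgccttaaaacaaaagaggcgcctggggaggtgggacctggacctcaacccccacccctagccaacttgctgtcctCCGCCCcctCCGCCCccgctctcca
Nid1: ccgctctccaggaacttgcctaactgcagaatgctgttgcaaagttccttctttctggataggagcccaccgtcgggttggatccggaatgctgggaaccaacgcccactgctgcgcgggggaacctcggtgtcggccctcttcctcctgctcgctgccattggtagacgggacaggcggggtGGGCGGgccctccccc
Hspg2: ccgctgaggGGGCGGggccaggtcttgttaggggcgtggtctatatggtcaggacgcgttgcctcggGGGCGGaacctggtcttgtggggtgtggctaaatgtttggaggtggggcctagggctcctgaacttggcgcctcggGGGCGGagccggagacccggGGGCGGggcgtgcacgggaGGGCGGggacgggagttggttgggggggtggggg
Hspg2 held 5 GC boxes, Lamb1 held 2 and Nid1 held 1. In windows of 300 bases, at least 1 GC box was found in 35.7% of 32851 mouse promoters and in 5 of the 6 members with a sequence, of which Lama5 held 4, Lama2 1 and Lamb2 0. The TATA box (TATAAA) and the AP-1 motif (TGANTCA), searched on both strands, had 0 matches in these 6 members, against 13.6% and 7.81% of all promoters. The CArG box, the site of serum response factor in muscle genes, was matched once, in Lama2, and is held by 1.63% of all promoters. These matches describe letters in a window and show no binding.

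The libraries held between 31049632 and 45832185 counts, with 20772 to 22684 genes detected, and genes of the mitochondrial genome took 14.9% to 21.2% of counts in young and 23.1% to 30.4% in aged libraries. Young replicate 1 held 14806 counts of Xist, the RNA that silences an X chromosome in female cells, against 7 to 24 counts in the other libraries, and 53 counts of the Y-linked Ddx3y against 1488 to 2117, so it goes against the description as male. Aged replicate 2 lay with the young libraries on the first principal component (30.1% of variance). It was at -13.4 there, against -52.2 to -10.3 in young libraries and 53.8 and 62.7 in the other aged libraries. The fits of the members, the ratios and the other gene lists were therefore repeated without these libraries, while shares and marker sums are given per library or as group values of all 6. Aged replicate 2 was singled out by its expression, so a fit without it is not independent of the difference between ages. Smooth muscle markers such as Myh11 and Acta2 summed to 34104.5 to 42387.5 CPM (counts scaled to a common library total by TMM) in young and 29464 to 34729 CPM in aged libraries, so the markers that define the labelled tissue were present.

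At the level of the whole set, edgeR called none of the 10 genes at a Benjamini-Hochberg adjusted p under 0.05, as it called 0 of all 16612 genes (0%). Of the members, 4 had a higher mean fitted level in aged aorta and 6 a lower one, with a median log2 fold change of -0.20 against 0.020 over all genes. At an unadjusted p under 0.05, 1723 genes passed. Among the members 2 passed as higher, Lamb1 and Nid1, where 5.56% of all genes did so, and 1 passed as lower, Hspg2, where 4.82% did so. The groups did not overlap for 1 member higher in aged mice, Lamb1 (7.74% of all genes), and for 1 member lower, Hspg2 (8.78% of all genes). In bulk tissue, fewer cells of a type and less RNA per cell cannot be told apart.

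**Figure D1:**
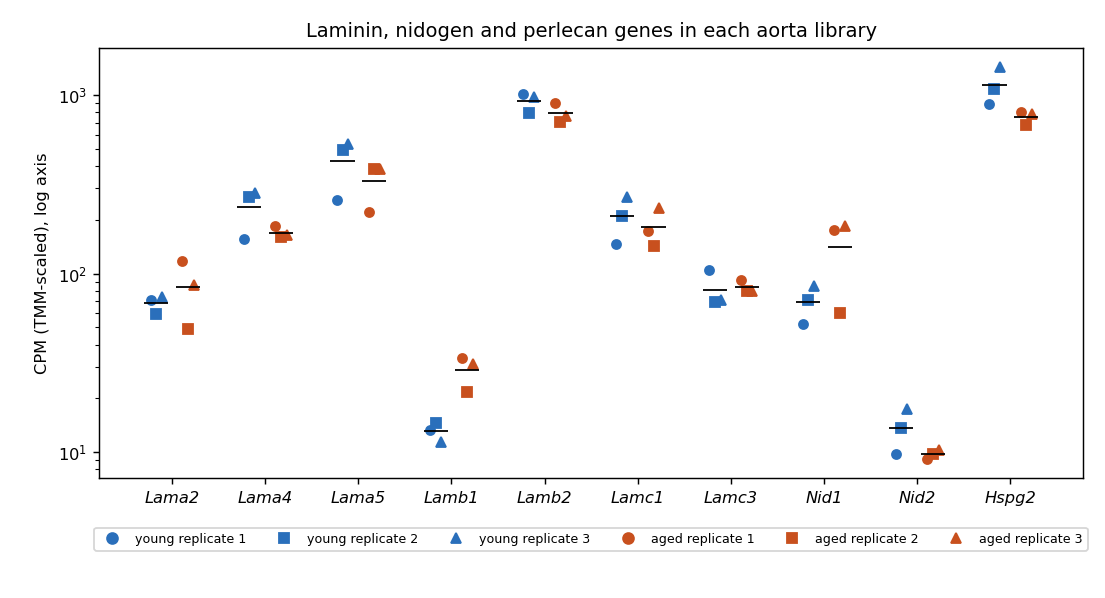
CPM of the 10 genes in each library (log axis), with young libraries in blue, aged in orange, 1 symbol per replicate number and the group mean as a line. Lamb1 is higher in all 3 aged libraries than in any young one, Hspg2 is lower in all 3, and the other 8 genes overlap between ages.

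Per length, the beta2 chain was the most abundant of these transcripts. Values in FPKM (counts scaled for gene length and library) allow levels to be set side by side between genes. Over all 6 libraries Lamb2 averaged 129 FPKM, Hspg2 59.4, Lama5 30.6, Lamc1 21.6, Lama4 15.5, Nid1 13.3, Lamc3 12.3, Lama2 4.16, Nid2 2.08 and Lamb1 1.86. Neighbours in this order were separated in every library for Lamb2 over Hspg2, Hspg2 over Lama5, Lamc1 over Lama4, Lamc3 over Lama2 and Lama2 over Nid2. Lama5 exceeded Lamc1 in 5 of 6 libraries and Lama4 exceeded Nid1 in 4 of 6. Nid1 exceeded Lamc3 in only 3 of 6, so that pair cannot be ordered. Nid2 also exceeded Lamb1 in 3 of 6, and these were the 3 young libraries. In each aged library Lamb1 exceeded Nid2, so the order of that pair differed between ages.

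The beta chains showed the member with the smallest p. Lamb1 encodes beta1, the beta chain of most embryonic and many adult laminins. Its level was 13.4, 14.5 and 11.3 CPM in young replicates 1, 2 and 3 and 33.5, 21.8 and 31.3 CPM in the aged ones. All aged libraries lay above all young ones. The means were 13.1 ± 1.61 CPM (SD, n = 3) in young and 28.9 ± 6.21 CPM (SD, n = 3) in aged aorta. The fitted log2 fold change was 1.14 (SE 0.21), a 2.21-fold higher level, with an unadjusted p of 0.000949 and an adjusted p of 0.325 by edgeR. DESeq2, run as an alternative, gave 1.15 with an adjusted p of 0.00179, and Lamb1 was the 1 member among the genes it called (2.26% of those with an adjusted p). Without aged replicate 2, edgeR gave 1.31 (SE 0.18) with an adjusted p of 0.0465, where 0.642% of genes were called. That call is gained by leaving out the aged library nearest to young ones, and the count over all genes goes from 0 to 110 with it. Without young replicate 1 it gave 1.17 with an adjusted p of 0.370.

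Lamb2 encodes beta2, the beta chain of mature vessels, muscle and the synapse. It was at 1009, 793 and 974 CPM in young libraries and 907, 710 and 768 CPM in aged ones. These values overlap between ages. Their means were 925 ± 116 and 795 ± 102 CPM (SD, n = 3 each). The fitted log2 difference was -0.22 (SE 0.18), with an adjusted p of 0.682 by edgeR. As a share of beta chain FPKM, beta2 made up 99.1% ± 0.233 in young and 97.8% ± 0.275 in aged aorta (SD, n = 3 each). The share of Lamb1 was 0.805%, 1.10% and 0.707% in young libraries and 2.21%, 1.84% and 2.43% in aged ones. Beta1 was thus a small part of the beta chain transcripts at both ages.

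Of the alpha chains, which carry the main sites for receptors, none passed the test. Lama5 encodes alpha5, a chain of endothelial and muscle basement membranes. It was at 259, 493 and 529 CPM in young libraries and 222, 385 and 383 CPM in aged ones, and young replicate 1 lay below 2 of the aged libraries. Its log2 fold change was -0.37 (SE 0.33) with an adjusted p of 0.703 by edgeR. Lama4 encodes alpha4, the early chain of endothelial laminin, and was at 157, 268 and 282 CPM in young and 185, 159 and 165 CPM in aged libraries. Young replicates 2 and 3 lay above every aged library, and young replicate 1 lay below them all, with a log2 fold change of -0.47 (SE 0.24), a p of 0.0864 and an adjusted p of 0.536 by edgeR. Lama2 encodes alpha2, the chain whose loss causes a congenital muscular dystrophy. It was at 71.4, 59.5 and 74.4 CPM in young and 118, 48.7 and 86.6 CPM in aged libraries, so that the lowest and the highest of all values were both in aged mice. Its log2 fold change was 0.30 (SE 0.31) with an adjusted p of 0.743 by edgeR.

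Alpha5 transcripts made up 60.4% ± 3.36 of alpha chain FPKM in young and 59.2% ± 11.3 in aged aorta (SD, n = 3 each). Alpha4 made up 31.9% ± 0.515 and 29.5% ± 5.94, and alpha2 made up 7.28% ± 2.97 and 10.9% ± 5.60. The order alpha5, alpha4, alpha2 held in all 6 libraries. Of the chains outside the set, Lama1 had 0 counts in 5 libraries and 6 in aged replicate 2, and Lamb3 had 0 to 22 counts, so neither was tested. Lama3, an alpha chain of epithelial laminin, averaged 0.208 FPKM, with a log2 fold change of -0.14 and an adjusted p of 0.916 by edgeR.

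The gamma chains carry the nidogen-binding contact shown above. Lamc1 encodes gamma1, the gamma chain of nearly all laminins, and was at 146, 211 and 269 CPM in young and 173, 143 and 232 CPM in aged libraries. The values overlap, with a log2 fold change of -0.19 (SE 0.27) and an adjusted p of 0.821 by edgeR. Lamc3 encodes gamma3, a chain of restricted distribution, and was at 104, 69.2 and 70.7 CPM in young and 91.9, 79.6 and 79.9 CPM in aged libraries. The means of 81.4 ± 19.7 and 83.8 ± 7.01 CPM (SD, n = 3 each) differed by less than either spread, with a log2 fold change of 0.042 (SE 0.20) and an adjusted p of 0.953 by edgeR. Gamma3 made up 35.0% ± 12.1 of gamma chain FPKM in young and 38.5% ± 6.11 in aged aorta, and gamma1 made up 63.7% ± 11.8 and 60.4% ± 5.98 (SD, n = 3 each). In young replicate 1 the gamma3 share was 48.7%, against 30.4% and 25.9% in the other young libraries.

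The fitted differences of both nidogens had opposite signs, and neither passed the test after adjustment. Nid1 encodes nidogen-1, the main linker of laminin and collagen IV. It was at 52.3, 70.7 and 85.3 CPM in young libraries and at 176, 60.5 and 184 CPM in aged ones. Aged replicates 1 and 3 lay above every young library, and aged replicate 2 lay within the young range. The log2 fold change was 1.01 (SE 0.42), a 2.02-fold higher level, with a p of 0.0438 and an adjusted p of 0.469 by edgeR. Without aged replicate 2 it was 1.38 (SE 0.22, adjusted p of 0.0612 by edgeR), and without young replicate 1 it was 0.85 with a p of 0.125 in the same edgeR fit.

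Nid2 encodes nidogen-2, which can stand in for nidogen-1. It was at 9.76, 13.7 and 17.5 CPM in young and 9.18, 9.78 and 10.2 CPM in aged libraries. Young replicate 1 lay among the aged values and the other young libraries lay above them. The log2 fold change was -0.49 (SE 0.25), with a p of 0.0881 and an adjusted p of 0.540 by edgeR. Nid1 made up 80.0%, 79.4% and 78.5% of nidogen FPKM in young libraries and 93.5%, 82.2% and 93.1% in aged ones, so its share was higher in every aged library.

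Perlecan was the member with the smallest p among those lower in aged aorta. Hspg2 was at 887, 1082 and 1428 CPM in young libraries and at 806, 679 and 784 CPM in aged ones. All aged libraries lay below all young ones, and the nearest pair was young replicate 1 with aged replicate 1. The means were 1132 ± 274 and 756 ± 67.8 CPM (SD, n = 3 each). The fit gave a log2 fold change of -0.58 (SE 0.21), lower in aged aorta, with a p of 0.0283 and an adjusted p of 0.437 by edgeR. Without young replicate 1 it was -0.72 (p of 0.00980 in the edgeR fit), without aged replicate 2 it was -0.51 (p of 0.0712), and without young replicate 3, which held the highest value, it was -0.37 (p of 0.113).

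**Figure D2:**
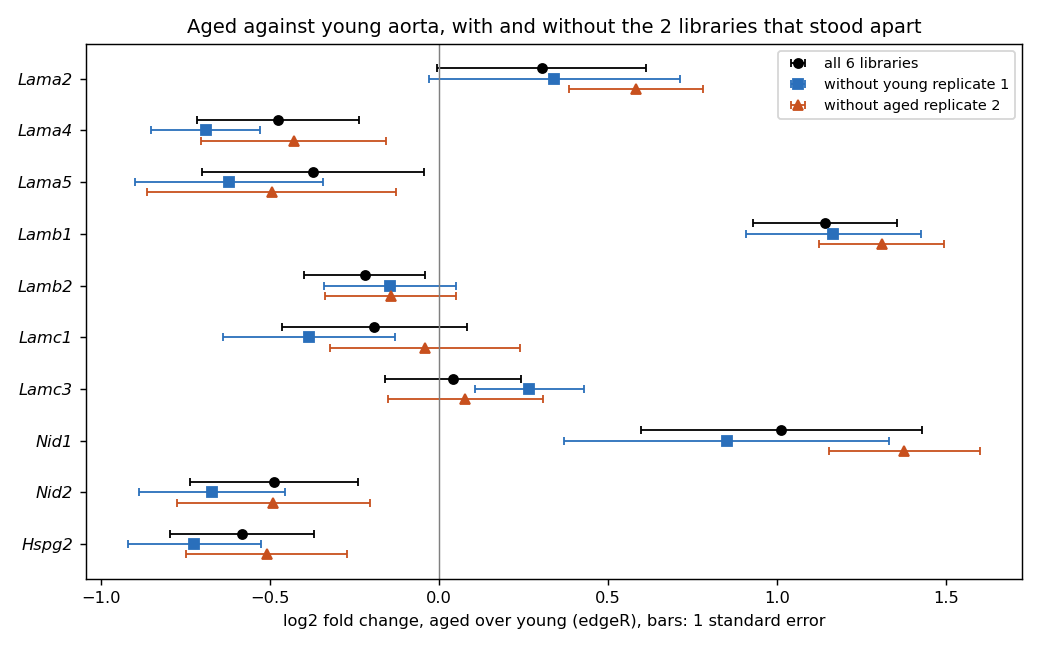
Fitted log2 fold change, aged over young, of the 10 genes with their standard errors, for all 6 libraries, without young replicate 1 and without aged replicate 2. Lamb1, Nid1, Lama2 and Lamc3 are above 0 and Hspg2, Nid2, Lama4, Lama5, Lamb2 and Lamc1 below 0 in each of the 3 fits shown, with standard errors that reach 0 for some.

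Members lower at an unadjusted p under 0.05 were more numerous in the edgeR fit without young replicate 1. In that library 6 of the 10 genes (Lama4, Lama5, Lamc1, Nid1, Nid2 and Hspg2) had their lowest young value. Without it, 3 members passed an unadjusted p under 0.05 as lower, where 5.41% of all genes did. They were Lama4 (log2 fold change -0.69, p of 0.00492), Nid2 (-0.67, p of 0.0204) and Hspg2 by edgeR. Leaving out young replicate 3 instead, which held the highest young value of these genes, gave smaller differences by the same test. Lama4 was then at -0.32 (p of 0.270), Nid2 at -0.26 (p of 0.337) and Lama5 at -0.18 (p of 0.647). Without young replicate 1 and aged replicate 2 together, 4 members were lower at this threshold (Lama4, Lama5, Nid2 and Hspg2, 7.08% of all genes) and 3 were higher (Lamb1, Nid1 and Lama2, 9.41% of all genes), and edgeR called none of them. In aged replicate 2, 8 of the 10 genes had their lowest aged value, all but Lama5 and Nid2.

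Ratios between members within a library do not depend on how libraries are scaled, and 8 were compared by an exact two-sided permutation test, in which 3 mice against 3 cannot go below p = 0.1. None could therefore pass, and 4 of the 8 had groups that did not overlap. No share over all pairs of genes was computed to set beside this count. Each of the 4 holds Lamb1, Nid1 or Hspg2, the members past the unadjusted threshold in the edgeR fit of all libraries. Some of them also share Nid1 or Lamc1. They thus partly restate the values of those genes and are not 4 separate results. The log2 ratio of Lamb1 to Lamb2 FPKM was -6.94, -6.48 and -7.13 in young and -5.47, -5.73 and -5.33 in aged libraries, a difference of 1.34 or 2.54-fold (exact permutation p = 0.1, adjusted p = 0.2). The ratio of beta1 to beta2 was higher in each aged library, aged replicate 2 included. That of Nid1 to Nid2 was 2.0, 1.94 and 1.87 in young and 3.84, 2.21 and 3.75 in aged libraries, a difference of 1.33 (exact permutation p = 0.1, adjusted p = 0.2). Aged replicate 2 was again the nearest to young aorta.

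Set against gamma1, the gamma chain of most laminins, Nid1 was higher and Hspg2 lower in aged libraries. The log2 ratio of Nid1 to Lamc1 was -1.23, -1.33 and -1.41 in young and 0.27, -0.99 and -0.081 in aged libraries, a difference of 1.05. The log2 ratio of Hspg2 to Lamc1 was 1.77, 1.53 and 1.58 in young and 1.39, 1.41 and 0.93 in aged libraries, a difference of -0.38. Both had an exact permutation p of 0.1 and an adjusted p of 0.2. The other ratios overlapped between ages. They were Lama2 to Lama4 (difference 0.65, exact permutation p = 0.2), Lama2 to Lama5 (0.57, p = 0.6), Lamc3 to Lamc1 (0.24, p = 0.7) and Lama4 to Lama5 (-0.082, p = 1). With young replicate 1 and aged replicate 2 both left out, the difference was 1.41 for Lamb1 to Lamb2, 1.89 for Nid1 to Nid2, 1.46 for Nid1 to Lamc1 and -0.40 for Hspg2 to Lamc1. For Lama2 to Lama5 it was also 1.41, and leaving out 1 library at a time gave 0.015 to 1.05 for that ratio, so its size depends on single libraries.

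**Figure D3:**
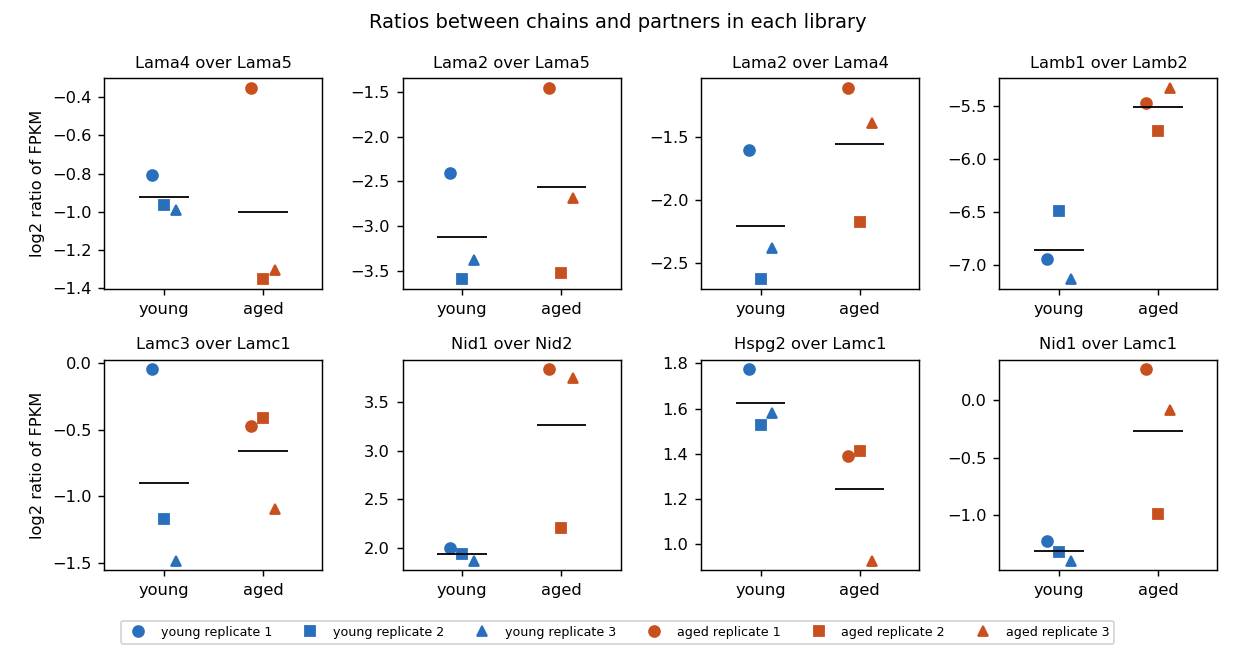
Log2 ratio of FPKM for the 8 pairs of genes, with 1 point per library, the groups side by side and a line at each group mean (vertical axes differ between panels). The ratios of Lamb1 to Lamb2, Nid1 to Nid2 and Nid1 to Lamc1 are higher, and that of Hspg2 to Lamc1 lower, in all 3 aged libraries.

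Markers of other cell types also differed between ages, and they are given because these cells make basement membrane too or adhere to it. Fibroblast markers (10 genes such as Pdgfra, Dpt and Lum) summed to 4790, 4950 and 6001 CPM in young and 10719, 3466 and 7588 CPM in aged libraries, and 8 of the 10 were higher, with a median log2 fold change of 1.39. In aged replicate 2 this sum lay below every young library, and the single markers there went both ways. Pdgfra (54.5 CPM) and Dpt (154 CPM) were above every young library, 4 markers were within the young range, and Pi16, Lum, Col1a1 (774 CPM) and Col3a1 (1336 CPM) were below it. Col3a1 and Col1a1 make up most of the sum in that library and in the young ones. In the same library Lamb1 (21.8 CPM) lay above every young library and Nid1 (60.5 CPM) lay within the young range. Lama2 was lowest in aged replicate 2 and highest in aged replicate 1, as was the fibroblast sum. Macrophage markers summed to 112 to 150 CPM in young and to 505, 156 and 342 CPM in aged libraries, with 10 of 10 higher. Endothelial markers summed to 485 to 582 CPM in young and to 460, 425 and 1818 CPM in aged libraries, and 9 of 10 had a higher fitted level. In aged replicates 1 and 2 the sum lay below every young library, as did Pecam1 (178 and 167 CPM). Pecam1 was at 870 CPM in aged replicate 3, while Emcn was above every young library in each aged one. Schwann cell markers, of a cell that makes alpha2 laminin, summed to 79.6 to 203 and 193 to 258 CPM, with 7 of 10 higher. Smooth muscle markers were higher for 0 of 10, with a median of -0.24. Pericyte sums were 1853 to 2048 and 1664 to 1863 CPM. Brown fat markers summed to 126 to 593 CPM in young libraries and to 178, 1897 and 176 CPM in aged ones, and white fat markers to 1064 to 2124 and 1103 to 3405 CPM. Cardiac muscle markers summed to 392, 96.7 and 107 CPM in young replicates 1, 2 and 3 and to 88.0 to 98.9 CPM in aged libraries. Skeletal muscle markers summed to 8.94 to 24.6 and 12.5 to 19.4 CPM, and mesothelial markers to 27.2 to 94.8 and 12 to 91.1 CPM. No defining marker of these lists was at 0 in all libraries. The part of these cells in the values of the 10 genes was not tested.

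**Figure D4:**
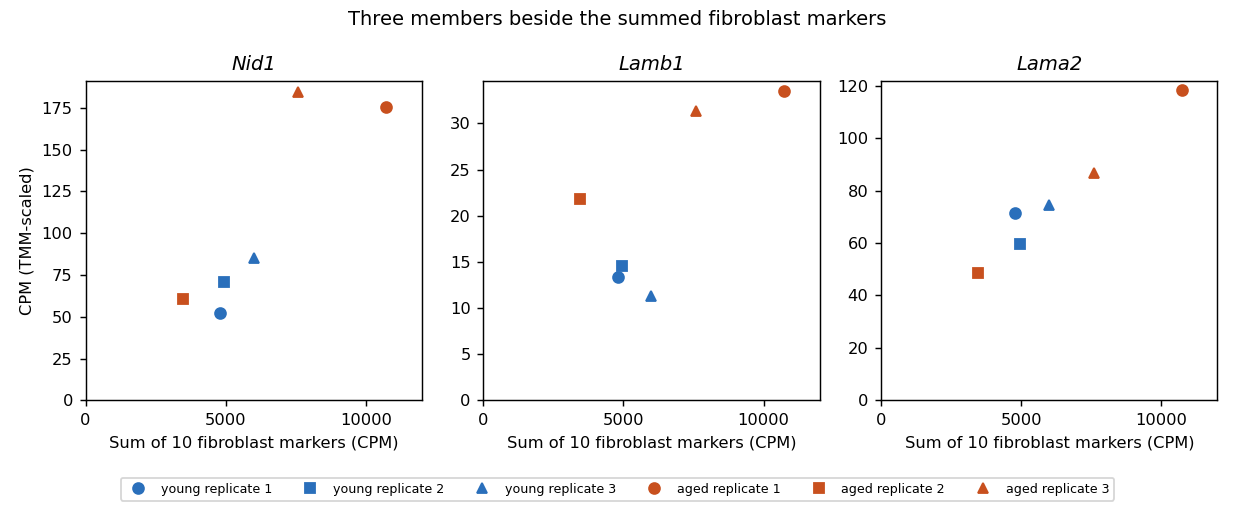
CPM of Nid1, Lamb1 and Lama2 (vertical) against the summed CPM of 10 fibroblast markers, with 1 point per library. Aged replicate 2 has the lowest marker sum of all 6 libraries, 3466 CPM, with Nid1 among the young values, Lamb1 above them and Lama2 below them. Of the 10 markers, 2 were above, 4 within and 4 below the young range in that library.

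The other components of the basement membrane gave 25 tested genes of 26, of which edgeR called 0 after adjustment, 5 were higher and 4 lower at an unadjusted p under 0.05, and the median log2 fold change was -0.0012. At that threshold 5.56% of all genes were higher and 4.82% lower. Pxdn, the peroxidasin that crosslinks collagen IV, was at 84.2, 96.2 and 99.0 CPM in young and 67.4, 69.3 and 66.7 CPM in aged libraries (log2 fold change -0.46, adjusted p of 0.390 by edgeR). Agrn, the heparan sulfate proteoglycan agrin, which binds laminin, was at 128, 165 and 155 CPM and 85.3, 109 and 114 CPM (-0.54, adjusted p of 0.414 by edgeR). Like perlecan, both were lower in every aged library than in any young one. Of the 25 genes tested 4 were so, the others being Col4a1 and Col4a6, named after their values were seen. Among all genes 8.78% were so. In the list 1 gene was higher without overlap, where 7.74% of all genes were. Hmcn2, a hemicentin, was at 3.18, 3.85 and 4.98 CPM in young and 14.9, 4.43 and 12.4 CPM in aged libraries (1.40, adjusted p of 0.396 by edgeR), with aged replicate 2 within the young range as for Nid1. The other genes past the unadjusted threshold, named after their values were seen, were Col4a5 and Col4a6 (lower) and Papln, Fbln1, Fbln2 and Smoc2 (higher). Sparc, the collagen-binding protein with the highest FPKM of the list, had a log2 fold change of -0.24 and an adjusted p of 0.815 by edgeR. At the unadjusted threshold, 1 gene was higher and 8 lower without young replicate 1 (5.90% and 5.41% of all genes). Without aged replicate 2, 9 were higher and 3 lower (8.19% and 5.57% of all genes). The split of this list thus depends on those libraries, and the shares of all genes also moved with them. In the fit without aged replicate 2, edgeR called 3 of the list after adjustment, where 0.642% of all genes were called. They were Fbln1, Fbln2 and Smoc2, all higher and named after their values were seen. In aged replicate 2 itself all 3 lay below every young library, at 59.3, 59.4 and 61.9 CPM.

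Receptors for laminin, listed together with the sarcoglycans and the cytoplasmic dystrophin complex (Dmd, Utrn, Dtna, Sntb1 and Sntb2) that holds dystroglycan to the cell and is no receptor itself, gave 20 tested genes, 8 higher and 12 lower, with 0 calls, 1 gene lower and 0 higher at an unadjusted p under 0.05, and a median of -0.15. At that threshold 4.82% of all genes were lower and 5.56% higher. Itga9, an integrin alpha chain of smooth muscle known mainly as a receptor for tenascin and other ligands, was at 596, 611 and 767 CPM in young and 467, 409 and 422 CPM in aged libraries (log2 fold change -0.61, adjusted p of 0.377 by edgeR). Itga3, the alpha chain of a laminin-binding integrin, gave -0.38 (adjusted p of 0.50 by edgeR) and Mcam, a receptor for alpha4 laminin, gave -0.46 (adjusted p of 0.549). Itgb1, the shared integrin beta1 chain, had the highest FPKM of the list, a log2 fold change of 0.00 (SE 0.16) and an adjusted p of 0.999 by edgeR. Without young replicate 1 and aged replicate 2 together, 4 genes of this list (Itga3, Itga9, Dag1 and Mcam, named after their values were seen) were lower and 0 higher at the unadjusted threshold. Of all genes, 7.08% were lower and 9.41% higher in that fit.

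The enzymes that build the laminin-binding glycan of dystroglycan gave 17 tested genes of 18, with 6 higher, 11 lower, 0 past an unadjusted p under 0.05 and a median of -0.11. Pomt1, an O-mannosyltransferase, had a log2 fold change of -0.35 and the lowest adjusted p of these genes by edgeR, 0.501. Dpm3, a subunit of dolichol-phosphate mannose synthase, had the highest FPKM and a log2 fold change of 0.47. The 21 genes of heparan sulfate synthesis and cleavage, which make the chains of perlecan and agrin, were 8 higher and 13 lower, with 1 higher and 2 lower at an unadjusted p under 0.05 and a median of -0.090. Beside both lists, 5.56% of all genes were higher and 4.82% lower at that threshold. Hs6st2, a 6-O-sulfotransferase, gave -1.26 (adjusted p of 0.377 by edgeR), Ndst1, an N-deacetylase and N-sulfotransferase, gave -0.55 (0.472) and Hs3st1, a 3-O-sulfotransferase, gave 1.16 (0.482). Sulf2, the sulfatase with the highest FPKM of these genes, gave 0.35.

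The genes with the pattern most like each member were found by Pearson r of log2 CPM over the 6 libraries, which share depth and composition, so the values are descriptions. Each r is also 1 of the 2 highest over all genes tested, and such a choice over 6 points gives high values by itself. Nid1 was most like Ildr2 (r = 0.997) and Cygb (0.995), Lamb1 like Borcs6 (0.994) and Ptbp1 (0.993), and Hspg2 like Cds2 (0.995) and Ccdc77 (0.993). Lama5 was most like Eps15l1 (0.997), Lamb2 like Cyr61 (0.997), Lama4 like Zdhhc8 (0.994), Lama2 like Pdia6 (0.994), Nid2 like Sdccag3 (0.993), Lamc3 like Snu13 (0.992) and Lamc1 like Ino80e (0.990). Neither of the 2 most alike genes of any member was itself a member.

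The genes differ in size and place in GRCm38. Lamb1 spans chr12:31265234-31329644 on the plus strand, Nid1 chr13:13437551-13512269 on the plus strand, and Hspg2 chr4:137468769-137570630 on the plus strand with 97 merged exons. Lama2 spans chr10:26980036-27619758 on the minus strand with 66 merged exons. Exons on the opposite strand overlap 8.45% of the exon bases of Nid2 (Rtraf), 6.27% of Lamc3 (Gm13441), 3.86% of Lama2 (Gm48084) and 2.06% of Nid1 (Gm48682), and 0 bases of the other 6 members. Whether strand was used in counting is not given in the sources used here, so reads of these pairs may be shared.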

How the data were processed

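The measurements are RNA-seq libraries of aorta, 1 for each of 3 young and 3 aged mice. The authors deposited whole-number counts of reads per gene and FPKM, which is the count scaled for gene length and library total. The build was mm10 per the submitters' processing notes, and the aligner, counting tool, annotation and strand setting are not given in the sources used here. The total per library was 31049632 to 45832185 counts. The members with the fewest counts, Nid2 and Lamb1, had standard errors of 0.25 and 0.21 for the log2 fold change. Those of all members ran from 0.18 (Lamb2) to 0.42 (Nid1).

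Counts were analysed in R 4.3.3 with edgeR 4.0.16. Genes were filtered with filterByExpr by group (minimum count 10, minimum total 15), normalized by TMM and fitted with the quasi-likelihood test with group as the sole term. Benjamini-Hochberg adjustment covered the 16612 genes tested, at a threshold of 0.05. The p values set the difference between groups against the spread between the libraries of single mice. CPM uses a prior count of 2 on the log2 scale. Ratios of FPKM were compared by exact two-sided permutation tests with p adjusted over the 8 ratios. The scripts were tested on simulated data.

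Each main setting was also exchanged for RLE size factors, no low-count filter, at least 10 counts in every library, a replicate block, DESeq2 1.42.0, limma 3.58.1 on log2(FPKM + 1), robust fitting, removal of mitochondrial genes and libraries left out. Leaving libraries out of the other gene lists was added after the data were seen. The study names Student's and Wilcoxon tests for comparisons in general and no model for these counts.

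Members and lists were chosen with earlier results of these data known. The text names all members, the 3 genes of each other list with the smallest p and the 1 with the highest FPKM, and the genes most like each member. Some genes that this rule names are not reported here. Gene positions are from GENCODE M21 on GRCm38, and promoters from RefSeq (GRCm38.p6), which matched 6 of 10 members. Protein sequences were not used here.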

Additional observations from a re-analysis of the deposited data

How the results depend on the processing

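Of 150 values of single members under the alternatives, 144 kept their direction and 142 also kept their side of the threshold. Only DESeq2 (338 genes) and edgeR without aged replicate 2 (110 genes) called any gene. In the other alternatives no member could change its side, so that count says little about stability. DESeq2 called 1 member, Lamb1, and leaving out each library in turn gave 0 to 1, the 1 being Lamb1 without aged replicate 2. Members lower at an unadjusted p under 0.05 were 1 in edgeR, 4 by limma on log2(FPKM + 1) (13.5% of all genes), 4 without young replicate 1 and aged replicate 2 together, and 0 to 3 with each library left out (2.28% to 5.57% of all genes). Members higher were 2 in edgeR, 1 with the replicate block (5.56% of all genes), 1 by limma (2.52%) and 1 with robust fitting (5.47%). With each library left out they were 1 to 3 (3.67% to 8.19% of all genes). Members whose groups did not overlap were 1 to 3 (higher) and 1 to 4 (lower) with each library left out, where 10.9% to 17.5% and 11.1% to 17.1% of all genes did not overlap, and 3 lower on log2(FPKM + 1), where 20.9% of all genes did so. The log2 ratio of Lama4 to Lama5 ran from -0.41 to 0.094 with each library left out and was 0.15 with both left out, and that of Lamc3 to Lamc1 ran from -0.052 to 0.67. The log2 fold change of Lamc3 was -0.14 by limma and ran from -0.053 to 0.27 with each library left out, that of Lama2 from -0.018 to 0.58, and that of Lamc1 from -0.40 to 0.042. It ran from -0.72 to -0.37 for Hspg2, -0.67 to -0.26 for Nid2, -0.69 to -0.32 for Lama4, -0.62 to -0.15 for Lama5 and -0.33 to -0.14 for Lamb2. It ran from 1.02 to 1.31 for Lamb1 and 0.77 to 1.38 for Nid1. The log2 ratio of Hspg2 to Lamc1 ran from -0.47 to -0.23. The cause of these differences was not tested. By limma the median of all genes was -0.12, against 0.020 in edgeR. Same-numbered libraries correlated at 0.079, 0.117 and 0.096 in their deviations from the group means. Libraries of unlike number correlated at -0.134 to 0.055, so the same-numbered value, though small, was the highest for each library. The main fit did not pair libraries by number, and whether the numbers mark a pair or a batch was not tested. With the replicate block, edgeR gave Nid1 a p of 0.0829 and called 0 genes. RLE size factors, either filter and removal of mitochondrial genes left the counts of members as they were.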
